A study of Mus musculus with 3 samples.

Results

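The genes described here encode the proteases and 1 of the adhesion proteins of desquamation, the shedding of dead cells from the skin surface. They are the kallikreins Klk5, Klk6, Klk7, Klk8, Klk10, Klk11, Klk13 and Klk14 and the corneodesmosin gene Cdsn, chosen by symbol from their known part in the cornified layer. All 9 were measured among 24011 named genes.

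The data were 3 microarrays of epidermal RNA, 1 for each genotype of mouse. TNF KO mice were TNF-/-. The cFLIP KO mice were cFLIP fl/fl K14CreERtam, in which the keratin 14 promoter drives a tamoxifen-inducible Cre in keratinocytes and Cre removes cFLIP, an inhibitor of caspase-8 coded by Cflar. The cFLIP KO/TNF KO mice, below the double knockout, were cFLIP fl/fl K14CreERtam TNF-/-. Epilated back skin of all 3 groups received tamoxifen for 3 days by the labels, epidermis was isolated 72 h after the first application by the study's text, and RNA of 4 animals was pooled for each array by the labels. The study's text gives ranges for the days and for the animals pooled, and it does not state whether the TNF KO mice carried Cre. The animals were adult by the study's text. In the title of the double knockout sample the first gene reads differently, and its genotype label was followed. Without a wild-type array, cFLIP KO and TNF KO epidermis differed in both genes, so that comparison alone cannot tell apart the part of each. By genotype, the double knockout differed from TNF KO in cFLIP, and from cFLIP KO in TNF. Neither loss can be read against wild-type epidermis.

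The epidermal kallikreins are secreted serine proteases that are made as inactive precursors in the granular layer, the last living layer of the epidermis. Once activated, they cleave the extracellular proteins of corneodesmosomes, the junctions that hold the dead cells of the cornified layer together. Inhibitors such as the Spink5 product LEKTI hold this cleavage back, and loss of LEKTI in humans causes Netherton syndrome, in which the cornified layer detaches. The kallikrein genes form 1 cluster on mouse chromosome 7, and Cdsn lies on chromosome 17.

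With 1 array for each genotype there was no replicate error, so no test could be made, and each difference below is between single arrays of pooled RNA. A gene was called where its log2 difference was at least 1 in size, that is 2-fold. The cFLIP KO array had a narrower spread of log2 values (SD over genes 1.77) than the TNF KO array (2.06) and the double knockout array (2.04), although the authors had quantile-normalised them. The targeted gene Cflar gave a log2 signal of 7.0 in TNF KO against 6.29 in cFLIP KO and 6.53 in the double knockout. It was lower in both cFLIP-deficient groups than in TNF KO, by less than 2-fold. Tnf, at 5.11, 5.79 and 5.21, was highest in cFLIP KO, the group with an intact Tnf gene, and where its probes lie relative to the deleted part was not tested. The labelled tissue showed its keratins, with Krt14 at or above 12.98, and also dermal RNA, with Col1a1 between 11.18 and 11.68 and a mean log2 signal of 9.52, 9.46 and 9.95 over 6 fibroblast markers. Xist, the long noncoding RNA of X inactivation, was at 8.58, 4.62 and 8.98 in that order, far lower on the cFLIP KO array. The Y-linked genes Eif2s3y (6.73, 6.08 and 5.14), Uty (5.74, 5.37 and 5.37) and Kdm5d (4.05, 3.62 and 3.62) were highest in TNF KO, and none was higher in cFLIP KO than there. The part of the sex of the pooled animals in any difference was not tested.

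The promoter windows of the 3 members with the largest differences (Klk5, Klk8, Cdsn), of the 1 bright kallikrein member that stayed near its TNF KO level (Klk10) and of its neighbour Klk9 are shown, so that their letters can be read beside their unlike differences. Each is 250 bases before an annotated start, 5′ to 3′ on the plus strand, from RefSeq on GRCm38.p6. Capitals mark matches on either strand to 2 of the 4 motifs searched, CCACCC (the CACCC box) and GGGCGG (the GC box), so GGGTGG is a match on the other strand. The Cdsn window is the one before the downstream of its annotated starts.
Klk5, chr7:43842019-43842268: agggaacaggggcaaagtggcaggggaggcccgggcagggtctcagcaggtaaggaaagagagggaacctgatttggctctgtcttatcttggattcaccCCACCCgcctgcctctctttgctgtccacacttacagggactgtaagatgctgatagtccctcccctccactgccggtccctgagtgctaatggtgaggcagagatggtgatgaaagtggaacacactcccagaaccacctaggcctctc
Klk8, chr7:43797327-43797576: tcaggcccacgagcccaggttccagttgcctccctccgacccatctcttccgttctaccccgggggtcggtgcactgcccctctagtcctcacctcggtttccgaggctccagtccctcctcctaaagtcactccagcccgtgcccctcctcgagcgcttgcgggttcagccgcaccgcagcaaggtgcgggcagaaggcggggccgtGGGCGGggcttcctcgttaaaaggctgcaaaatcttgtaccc
Klk9, chr7:43791641-43791890: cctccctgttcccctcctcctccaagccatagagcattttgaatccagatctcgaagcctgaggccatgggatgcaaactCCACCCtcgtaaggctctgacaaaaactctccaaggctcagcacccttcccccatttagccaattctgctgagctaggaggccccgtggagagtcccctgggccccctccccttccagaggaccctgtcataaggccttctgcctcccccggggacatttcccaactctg
Klk10, chr7:43780804-43781053: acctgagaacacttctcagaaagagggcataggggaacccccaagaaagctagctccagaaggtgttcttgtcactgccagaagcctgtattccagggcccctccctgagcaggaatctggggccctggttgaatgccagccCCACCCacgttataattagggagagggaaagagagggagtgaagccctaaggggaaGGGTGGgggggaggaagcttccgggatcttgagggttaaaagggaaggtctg
Cdsn, chr17:35551878-35552127: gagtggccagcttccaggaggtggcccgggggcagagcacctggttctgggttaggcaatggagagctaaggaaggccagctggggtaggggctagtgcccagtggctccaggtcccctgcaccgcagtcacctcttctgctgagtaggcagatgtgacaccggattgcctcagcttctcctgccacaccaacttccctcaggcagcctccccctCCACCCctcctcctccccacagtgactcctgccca

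All 9 members had at least 1 such window, with 12 windows in all because Klk6, Klk11 and Cdsn had more than 1 annotated start. CCACCC, letters bound by Krüppel-like factors, was found in 7 of the 12 windows and at 7 members, against 28.1% of 32851 windows of this length in the whole table. GGGCGG was in 4 of the 12 windows and at 3 members (32.7% of all windows), and at Klk7 a match to each shared bases. Neither TGANTCA, the AP-1 motif (6.75% of all windows), nor TATAAA (12.4%) was in any of the 12, which says only that these letters were not in these windows. The motifs were searched after the values had been seen. Klk5, with a large difference, and Klk10, with almost none, both had CCACCC, the former 150 bases before its start and the latter 108 and 52 bases before. A match is a description of the letters and no evidence of binding.

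Among the members, 7 were at least 2-fold below TNF KO in cFLIP KO epidermis and 0 were above it, where 9.15% of all named genes were lower and 3.88% higher. In the double knockout 0 members passed 2-fold in either direction from TNF KO, where 0.225% of all named genes were lower and 0.629% higher. Differences in this comparison were small, with an SD of 0.22 over all genes. Within 2-fold, 8 of the 9 members were lower than in TNF KO, against 5870 of 24011 named genes. Only 0.63% of named genes had a lower difference than Klk13, 0.94% than Cdsn and 1.03% than Klk8. For Klk7 and Klk6 the shares were 23.4% and 86.2%. Directly compared, 6 members were at least 2-fold lower on the cFLIP KO array than in the double knockout and 0 were higher, against 8.07% and 3.32% of all named genes. With the arrays scaled by Actb, 3 members (Klk8, Klk13 and Cdsn) passed 2-fold below TNF KO in the double knockout, against 1.83% of all named genes under that scaling, which shifted the median of all genes by -0.52. These 3 comparisons use the same 3 arrays and are not independent of each other. The median log2 difference of the members was -1.54 for cFLIP KO minus TNF KO and -0.36 for double knockout minus TNF KO. For cFLIP KO minus double knockout it was -1.44, and the median of all genes was 0.00 in each comparison. Exactly equal values were common, at 12618 of 24011 genes on TNF KO and the double knockout and 5559 on TNF KO and cFLIP KO. On all 3 arrays 4817 genes were equal, and 0 members were equal on any 2. The cause of these ties was not tested, so a difference of 0.00 may not reflect separate measurements. In bulk epidermis, fewer granular layer cells and less RNA per cell cannot be told apart.

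Bright genes as a whole were lower on the cFLIP KO array. Among the 1910 named genes at or above the lowest mean log2 signal of the 8 bright members (7.95), a limit chosen after the data were seen, 39.3% were at least 2-fold lower on the cFLIP KO array than on the TNF KO array, and the median difference was -0.80. For cFLIP KO minus double knockout, 33.9% were 2-fold or more lower, with a median of -0.76. The 7 lower members were all among the 8 bright ones. Beside these shares, the count of 7 of 8 stands less far from the genes around it than beside 9.15%.

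**Figure D1:**
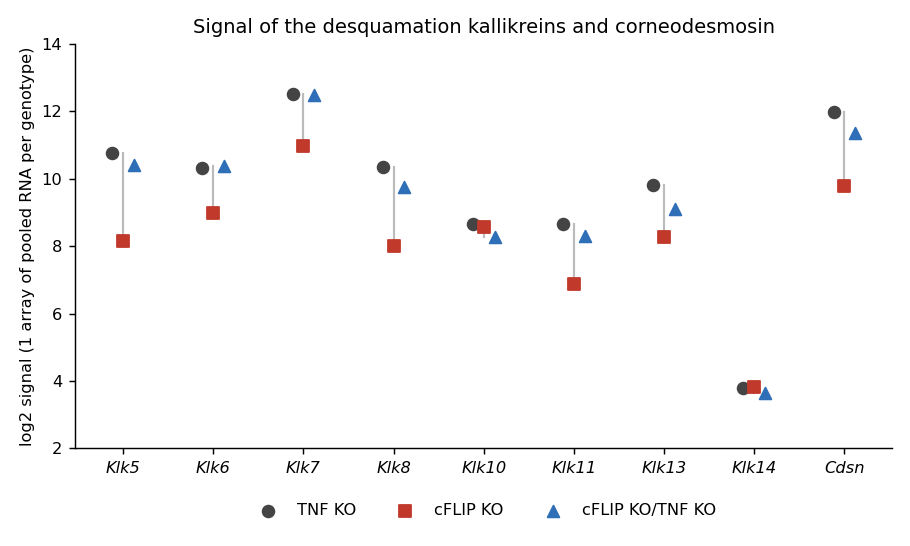
Log2 signal (y axis) of each of the 9 members (x axis) on the 3 arrays, 1 point for each genotype, with a grey line over the range of the 3. The cFLIP KO point is the lowest for 7 members, and the double knockout point lies between the other points for 6.

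Klk5 is a trypsin-like protease that, in human epidermis, activates itself and the Klk7 precursor and so stands at the head of the cascade. Its log2 signal was 10.78 in TNF KO against 8.16 in cFLIP KO and 10.42 in the double knockout. The cFLIP KO array was thus alone at the low end, and the other arrays lay within 0.36 of each other. The cFLIP KO array lay -2.61 from TNF KO, a signal of 16.4% of that in TNF KO and 6.11-fold lower, and the double knockout array lay -0.36 from it. Only 113 of the 24011 named genes had a lower cFLIP KO minus TNF KO difference. Against the double knockout the cFLIP KO array was lower by a log2 difference of -2.26.

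Klk7, the chymotrypsin-like protease of the cornified layer, cleaves corneodesmosin. It gave a log2 signal of 12.51 in TNF KO against 10.97 in cFLIP KO and 12.50 in the double knockout. The TNF KO and the double knockout signals were within 0.01 of each other as deposited, and cFLIP KO stood below both. The cFLIP KO differences were -1.54 from TNF KO and -1.53 from the double knockout, leaving 34.5% of the TNF KO signal.

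Klk14, a trypsin-like protease that can activate the Klk5 precursor in humans, was dim on every array. Its log2 signal was 3.79 in TNF KO against 3.81 in cFLIP KO and 3.63 in the double knockout, and it was the only member below the median mean log2 signal of all genes (4.23). No difference could be read at this signal, with values of 0.02 and -0.16 from TNF KO.

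Klk8, known as neuropsin, is a trypsin-like protease found in brain and in the upper epidermis, and mice without it have changes in shedding of the cornified layer. The log2 signal was 10.34 in TNF KO against 8.01 in cFLIP KO and 9.76 in the double knockout. The cFLIP KO array was again the lowest, at 19.8% of the TNF KO signal (-2.33), while the double knockout held 66.5% of it (-0.59). In cFLIP KO the signal was 3.35-fold lower than in the double knockout.

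Klk6, a trypsin-like protease also known from the nervous system, gave a log2 signal of 10.33 in TNF KO against 8.99 in cFLIP KO and 10.38 in the double knockout. It was the only member whose double knockout signal was above that of TNF KO, by 0.05 as deposited and with the sign turned when the arrays were scaled by Actb (-0.47). The cFLIP KO difference of -1.34 was the smallest among the 7 members called.

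Klk11 and Klk13 are further trypsin-like kallikreins of stratified epithelia. Klk11 was at 8.65 in TNF KO against 6.88 in cFLIP KO and 8.31 in the double knockout, a cFLIP KO signal of 29.2% of TNF KO. Klk13 was at 9.80, 8.26 and 9.11 in the same order. Both were lowest in cFLIP KO, but they differed in the double knockout. There Klk13 had the lowest difference from TNF KO of the 9 members (-0.69), so that its difference between cFLIP KO and the double knockout (-0.85) missed 2-fold, whereas Klk11 was called in that comparison (-1.44).

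Klk10 was the exception among the bright kallikreins. Its log2 signal was 8.66 in TNF KO against 8.56 in cFLIP KO and 8.28 in the double knockout, so the lowest array was the double knockout rather than cFLIP KO. In cFLIP KO 93.0% of the TNF KO signal was left. The cFLIP KO minus TNF KO difference of -0.11 had no stable sign: it was 0.15 with the arrays scaled by reference genes, 0.64 after repeated quantile normalisation and 0.59 once the trend of the difference on the signal was subtracted.

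Corneodesmosin, the Cdsn product, is the secreted adhesion protein that the kallikreins remove, and its loss detaches the cornified layer in mice and causes peeling skin disease in humans. Cdsn gave a log2 signal of 11.97 in TNF KO against 9.79 in cFLIP KO and 11.37 in the double knockout. The target of the proteases was therefore lower in cFLIP KO on the same arrays as the proteases, with 22% of the TNF KO signal left. Its differences were -2.18 in cFLIP KO and -0.61 in the double knockout from TNF KO, and -1.58 between cFLIP KO and the double knockout.

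**Figure D2:**
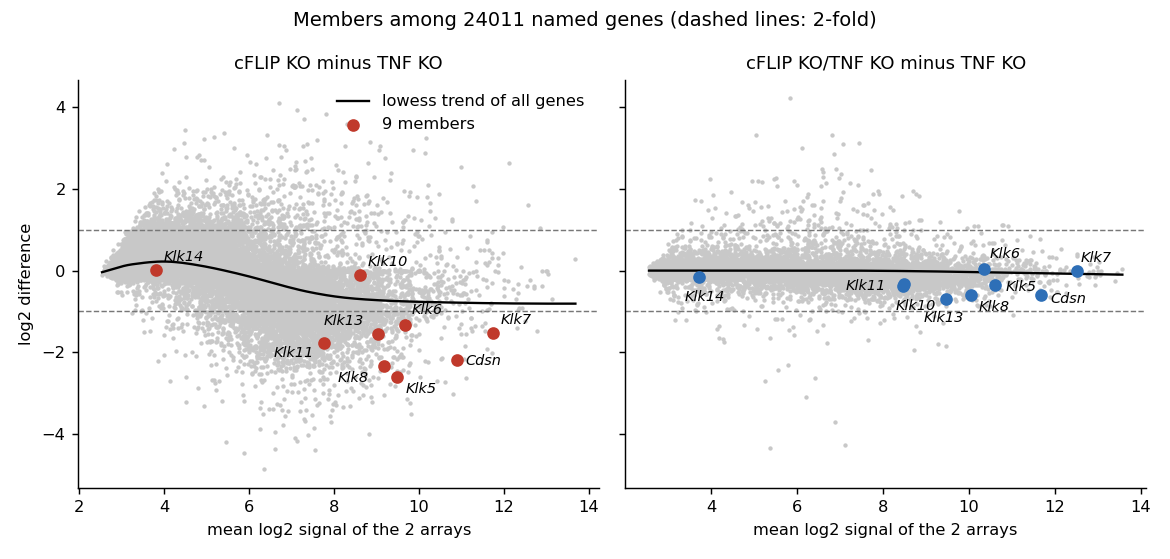
Log2 difference (y axis) against the mean log2 signal of the compared arrays (x axis) for 24011 named genes in grey, with the members coloured and a lowess trend in black, for cFLIP KO minus TNF KO and double knockout minus TNF KO. In cFLIP KO the trend is below 0 for bright genes and the 7 called members lie below it, while in the double knockout the trend stays near 0 and no member reaches the dashed 2-fold lines.

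Subtracting that trend from the cFLIP KO minus TNF KO differences left Klk5 at -1.86, Klk8 at -1.60, Cdsn at -1.40 and Klk11 at -1.18. These 4 members remained at least 2-fold lower, and they were the ones that passed 2-fold under all 7 ways of scaling and summarising the values. Klk13 at -0.82, Klk7 at -0.74 and Klk6 at -0.58 no longer passed. Between cFLIP KO and the double knockout, Klk5 and Klk8 passed 2-fold under all 7 settings, Cdsn under 6, Klk7 under 5, and Klk6 and Klk11 under 4. The 7 settings include the values as deposited. Raising low values and taking the brightest row left every member at its deposited difference. Those settings repeat the deposited result in these counts and could not change it.

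**Figure D3:**
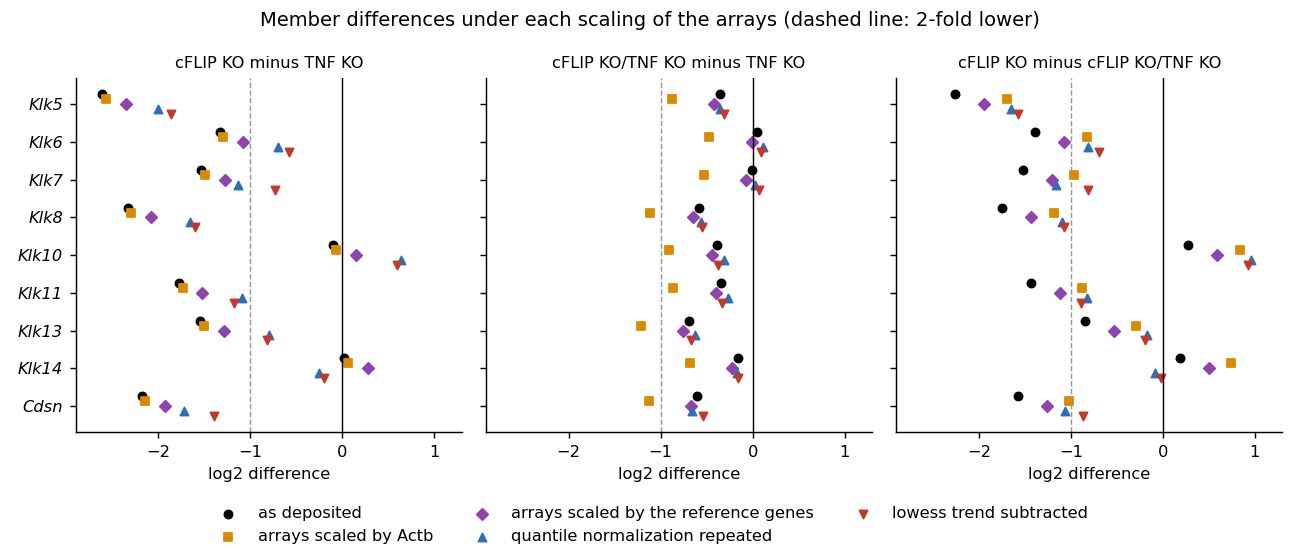
Log2 difference (x axis) of each member (y axis) as deposited and under 4 other scalings of the arrays, in a panel for each comparison. Klk5 and Klk8 stay left of the dashed 2-fold line in both comparisons of cFLIP KO, and Klk10 and Klk14 change sign between settings in cFLIP KO minus TNF KO.

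The order of the genes on chromosome 7 placed the lower members together with others that were not lower. From Klk13 to Klk5, 9 kallikrein genes were measured and 7 were at least 2-fold lower on the cFLIP KO array than on the TNF KO array. The 2 that were not are Klk12, listed at 4.72 on all 3 arrays, and Klk10. The shares lower were 9.15% of all named genes and 39.3% of the 1910 bright ones. Klk9, which lies between Klk10 and Klk8 and is not among the 9 members, gave a log2 signal of 10.70 in TNF KO against 7.92 in cFLIP KO and 10.07 in the double knockout, with differences from TNF KO of -2.78 and -0.63. Next to it, Klk10 held nearly all of its TNF KO signal. Past Klk5 came Klk4, at 4.94 in TNF KO and 5.26 in cFLIP KO, and Klk15, which was dim.

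Of 18 other tissue kallikreins, 16 were measured, with a median difference of 0.00 between cFLIP KO and TNF KO. Of all named genes, 9.15% were at least 2-fold lower on the cFLIP KO array than on the TNF KO array and 3.88% higher. Among the 16 kallikreins 3 were lower and 0 were higher. The 3 were Klk9, Klk1b24 (6.25, 5.03 and 5.83 in TNF KO, cFLIP KO and the double knockout) and Klk1b27. Klk1b27 was also lower in the double knockout, with signals of 5.18, 3.88 and 3.43, and was the only measured kallikrein at least 2-fold lower there. The Klk1b genes are near-identical copies, so their probes may read each other and their values are uncertain. Klk1, the renal and glandular kallikrein, was at 6.97, 6.81 and 6.97.

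**Figure D4:**
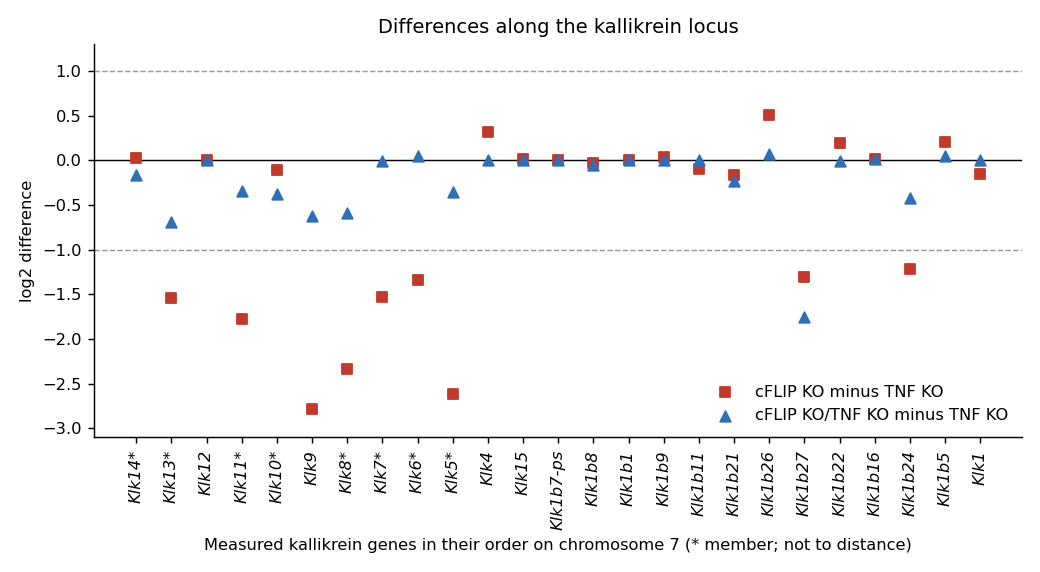
Log2 difference from TNF KO (y axis) of 25 measured kallikrein genes in their order on chromosome 7 (x axis, not to distance), squares for cFLIP KO and triangles for the double knockout, with members starred. The squares below the dashed 2-fold line lie mostly between Klk13 and Klk5, and the triangles stay within 2-fold except for Klk1b27.

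Proteases that act with the kallikreins in the upper epidermis were 2-fold or more below TNF KO in cFLIP KO in 7 of 14 cases and 2-fold or more above it in 0. The shares lower were 9.15% of all named genes and 39.3% of the 1910 bright ones. The median of the list was -1.0, and -0.41 with the lowess trend of all genes subtracted. In the double knockout 0 of 14 passed 2-fold (median -0.16). St14 codes for matriptase, a membrane protease that can start the kallikrein cascade in mice without LEKTI, and was at 9.01 in TNF KO against 7.40 in cFLIP KO and 8.74 in the double knockout. Prss8, or prostasin, which matriptase activates, lay -1.80 from TNF KO in cFLIP KO and -0.48 in the double knockout. Casp14, the caspase of filaggrin breakdown, had the lowest differences of the list (-4.0 and -0.84). Plau, the urokinase gene, was above TNF KO in both by less than 2-fold (0.56 and 0.73).

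The inhibitors of these proteases were divided. Of 13, 5 were at least 2-fold lower and 1 higher on the cFLIP KO array than on the TNF KO array, against 9.15% and 3.88% of all named genes. The median was -0.79, and -0.19 with the lowess trend subtracted. In the double knockout 1 was 2-fold or more lower. Spink5, whose product LEKTI inhibits Klk5, Klk7 and Klk14, gave a log2 signal of 11.99 in TNF KO against 10.52 in cFLIP KO and 11.73 in the double knockout. Serpina12, which codes for vaspin, an inhibitor of Klk7, was at 8.38, 5.08 and 7.84. For both inhibitors cFLIP KO was the lowest array, as it was for Klk5 and Klk7. Slpi, an inhibitor of Klk7 and of neutrophil proteases, ran the other way with 6.68, 8.55 and 6.79, the only inhibitor at least 2-fold higher in cFLIP KO.

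Among 15 desmosome and corneodesmosome genes, 7 were at least 2-fold lower on the cFLIP KO array than on the TNF KO array and 0 higher. The shares lower were 9.15% of all named genes and 39.3% of the 1910 bright ones. The median of the list was -0.98, against -0.80 for those bright genes, and -0.19 with the lowess trend subtracted. In the double knockout 1 was 2-fold or more lower (Dsc2, -1.16), with a median of -0.12. The desmosomal cadherins of the upper epidermis, which the kallikreins cleave along with corneodesmosin, were among the 7. Dsg1a was at 11.24 in TNF KO against 9.03 in cFLIP KO and 10.89 in the double knockout, and Dsc1 at 12.14, 9.97 and 11.65. Dsg1a has close copies next to it, so its value is uncertain in the same way as those of the Klk1b genes. The other cadherins of the list were mixed. Dsg2 was also among the 7 (-2.13 in cFLIP KO and 0.00 in the double knockout), while Dsc3 lay -0.98 and -0.07 and Dsg3 -0.14 and 0.00 from TNF KO. Dsp, the desmoplakin gene, lay -0.93 and -0.12 from TNF KO.

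Among 7 measured of 9 listed substrates and targets of kallikrein signalling, 3 were at least 2-fold lower and 1 higher on the cFLIP KO array than on the TNF KO array. Of all named genes, 9.15% were lower and 3.88% higher. Smpd1 codes for acid sphingomyelinase, a lipid-processing enzyme of the barrier that kallikreins can degrade, and was at 9.17 in TNF KO against 6.65 in cFLIP KO and 8.72 in the double knockout. Flg, the filaggrin gene, lay -2.64 from TNF KO in cFLIP KO and -0.36 in the double knockout, and the cytokine gene Tslp -1.48 and -0.70. Il1b, whose precursor human KLK7 can cleave, was the 1 that was higher (9.73, 12.26 and 10.46). Camp (0.26 and -0.16), the cathelicidin gene, and the protease-activated receptor genes F2r (-0.04 and 0.00) and F2rl3 (0.53 and -0.03) stayed within 2-fold.

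**Figure D5:**
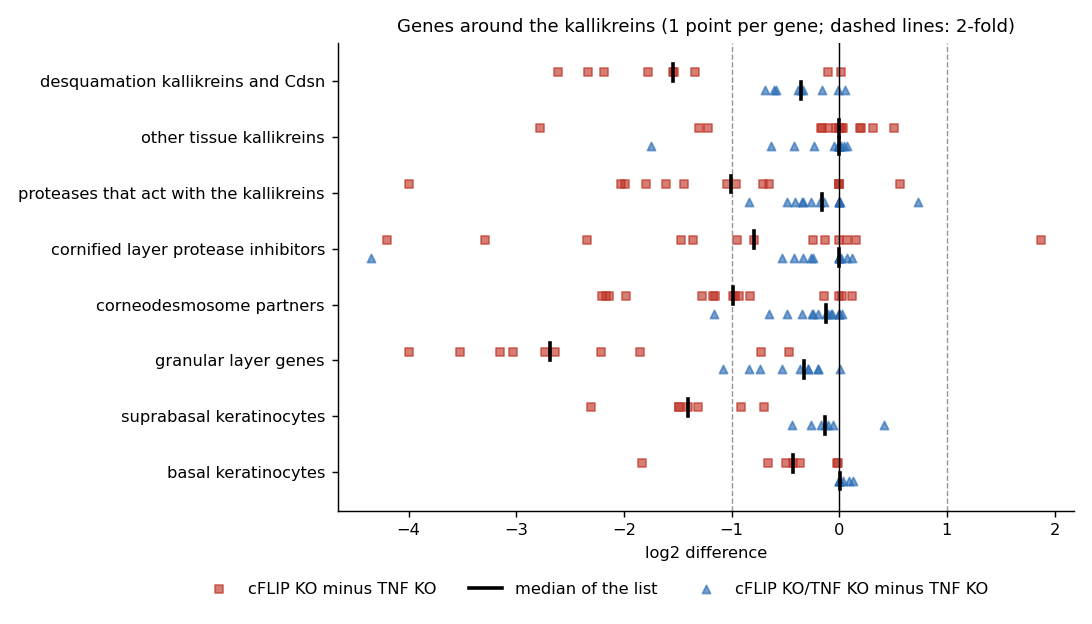
Log2 difference from TNF KO (x axis) of each gene of 8 lists (y axis), squares for cFLIP KO and triangles for the double knockout, with a black bar at each list's median. The cFLIP KO medians run from -2.68 for the granular layer genes to 0.00 for the other tissue kallikreins, and the double knockout medians from -0.36 to 0.01.

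Genes of the granular layer, where the kallikreins are made, were 2-fold or more below TNF KO in cFLIP KO in 8 of 10 cases and at least somewhat below it in all 10, with a median of -2.68, further from 0 than the members' -1.54. With the lowess trend subtracted, these medians were -1.90 for the granular layer genes and -0.82 for the members. In the double knockout the granular layer median was -0.33, close to the -0.36 of the members. Markers of suprabasal keratinocytes had a median of -1.40 in cFLIP KO, with all 7 below TNF KO and 5 of 7 at least 2-fold lower, and the mean log2 signal over the list was 12.54 in TNF KO against 11.16 in cFLIP KO and 12.43 in the double knockout. Basal keratinocyte markers had a median of -0.43, with all 7 below TNF KO and 1 of 7 at least 2-fold lower. Of the 1910 bright genes described above, 39.3% were at least 2-fold lower, with a median of -0.80. Once the trend was subtracted, Krt15 stayed below 0 (-1.20). Krt5 (0.38), Krt14 (0.79), Itga6 (0.40), Itgb4 (0.69), Col17a1 (0.11) and Trp63 (0.22) were then above 0. Macrophage markers had a higher list mean than in TNF KO in both cFLIP-deficient groups (6.72, 7.58 and 7.69), with 3 of 6 and 2 of 6 at least 2-fold higher. In cFLIP KO 4 were above TNF KO and 2, Adgre1 and Csf1r, were equal to it. Langerhans cell markers were all below TNF KO in cFLIP KO as deposited (median -0.60) but had a median of 0.64 in the double knockout. With the trend subtracted they were mixed in cFLIP KO. Cd74 (0.70), H2-Ab1 (0.64) and Mfge8 (0.12) were then above 0, and Cd207 (-0.26), H2-Aa (-0.21) and Epcam (-0.95) stayed below it. In cFLIP KO the median was 0.00 for T cell markers and 0.32 for neutrophil markers. The part of these shifts in cell makeup in the members' differences was not tested.

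The patterns most like those of 3 members were looked up over the 3 arrays, by the Euclidean distance between pairs of differences from TNF KO, among 10881 genes at or above the median signal that are protein-coding and do not have a Gm or Rik symbol. Nearest to Klk5 was Flg, the filaggrin gene, at a distance of 0.03, followed by Slco3a1, Eps8l1, Srpk1 and Mob4. Nearest to Klk7 were Ppp2r5c, Stt3b, Fam83f, Mtmr9 and Lifr, at 0.01 each. All of these but Stt3b had exactly equal values on the TNF KO and double knockout arrays, so their closeness rests in part on such ties. Nearest to Cdsn were Ei24 (0.01), Garem1 (0.06), Slurp2 (0.07), Abca12 (0.07) and Fam135a (0.07). Abca12, the lipid transporter of lamellar bodies, which also carry kallikreins and corneodesmosin to the cornified layer, was at 11.32 in TNF KO against 9.09 in cFLIP KO and 10.67 in the double knockout. With 3 arrays many genes lie this close, and the distances describe likeness of pattern only.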

How the data were processed

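RNA of separated epidermis was labelled and hybridised to Affymetrix mouse gene arrays by the authors, 1 array of pooled RNA for each genotype. The authors deposited 1 log2 value per ENTREZ gene and array, for which they had grouped probes by a custom chip definition, corrected background by the robust multiarray method and quantile-normalised the arrays. The submitters' processing notes name RMA. Its version and a genome build were not given in the sources used here. No source names the log base, and log2 was taken from the range of the values (2.48 to 13.82).

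ENTREZ identifiers were turned into symbols through the annotation of the platform. Each array held 24973 values. The 958 without a single gene symbol, by rule those with none or with several, were not used. Rows that shared a symbol were averaged, which left 24011 genes. No low value was filtered. Precision was limited by the number of arrays.

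Differences of log2 signals were taken between arrays, with Python 3.11.15, pandas 2.3.3, numpy 2.4.6 and statsmodels 0.14.6, and drawn with matplotlib 3.10.9. The study's analysis of variance was not repeated, since single arrays give no residual error. The lowess trend (share 0.3, 3 iterations) was fitted on the mean signal of the compared arrays. It was tried on simulated data with no trend or a straight-line trend. The fitted trend of cFLIP KO minus TNF KO was curved (-0.003 at Klk1b8, 0.22 at Klk14 and -0.80 at Klk7). That trial therefore does not show how well the subtraction works on these arrays. Alternatives were scaling by Actb or by 7 measured of 10 reference genes, a repeat of the quantile step, raising low values to the 25th percentile, the brightest row of a symbol, other thresholds, the mean in place of the median, and leaving out dim genes. Promoter windows were those of RefSeq on GRCm38.p6, and each motif was searched on both strands.

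All members, the other kallikreins, up to 4 genes furthest from 0 in each related list, and the 5 genes nearest in pattern to Klk5, Klk7 and Cdsn could be named, and other genes named were chosen after their values were seen. The members and lists were chosen with earlier results of these data known.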

Additional observations from a re-analysis of the deposited data

How the results depend on the processing

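No paired analysis was possible because each genotype had 1 array, and for the same reason no array could be left out. Of 7 members at least 2-fold below TNF KO in cFLIP KO, 4 passed after the lowess trend was subtracted and 4 passed 3-fold in place of 2-fold, while a repeated quantile step left 5. Of 6 below the double knockout (cFLIP KO/TNF KO) in cFLIP KO, 3 passed with the arrays scaled by Actb, 2 after the lowess trend and 2 at 3-fold. For the double knockout minus TNF KO, 3 members were lower with the arrays scaled by Actb and 3 at 1.5-fold, in place of 0, and the members' median was -0.88 by Actb in place of -0.36. Scaling by Actb moved the median of all genes by -0.52 in that comparison and by 0.56 in cFLIP KO minus double knockout, and Actb itself was at 11.87, 11.83 and 12.39. Relative to the median of all genes, the members' Actb-scaled values are those of the deposited table. Scaling by reference genes moved it by 0.25 in cFLIP KO minus TNF KO. Among all genes, 2198 were at least 2-fold below and 932 above TNF KO in cFLIP KO as deposited, 1189 and 937 with the lowess trend subtracted, 1162 and 1024 with the quantile step repeated, and 1470 and 1757 by the reference genes. The members' median in cFLIP KO minus TNF KO lay between -1.66 and -0.82 over the settings run, and no called value changed sign. Differences of Klk14 rest on a dim signal. The cause of these shifts was not tested.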

Other observations

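Some genes named beside the kallikreins did not have their lowest signal in cFLIP KO. Spink7, a gene of the Kazal-type inhibitor family to which Spink5 belongs, gave a log2 signal of 7.55 in TNF KO against 3.35 in cFLIP KO and 3.20 in the double knockout (cFLIP KO/TNF KO), so both cFLIP-deficient arrays were far below TNF KO. Dsc2, a desmocollin, was at 7.91 in TNF KO against 8.03 in cFLIP KO and 6.74 in the double knockout. Tgm3, a transglutaminase of the cornified envelope and the hair, was at 10.06, 9.59 and 9.32. Inner root sheath keratin genes of the hair follicle were lowest in the double knockout as well, with Krt71 at 9.25, 5.95 and 4.97, Krt27 at 7.73, 6.06 and 5.11 and Krt25 at 7.58, 6.19 and 5.81. Of 9 hair follicle markers, 3 were at least 2-fold lower in each cFLIP-deficient group than in TNF KO. Of all named genes, 9.15% were that much lower in cFLIP KO and 0.225% in the double knockout. The list was mixed in cFLIP KO, with 5 of the 9 above TNF KO and a median of 0.00. In the double knockout 8 of the 9 were below TNF KO, with a median of -0.73. The genes named in this paragraph were picked after their values were seen, each on 1 array per genotype.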
